A study of Caenorhabditis elegans with 36 samples.

Results

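The glutathione S-transferases (*gst*, *gsto* and *gstk* symbols, called *gst* genes here) and the UDP-glucuronosyltransferases (*ugt* symbols) of *Caenorhabditis elegans* were followed across 36 RNA-seq libraries of whole worms. Members were the protein-coding genes whose symbol in the Ensembl annotation of WBcel235 is one of these names followed by a number, that reached 10 counts or more in 6 or more of the 36 libraries. Of 116 genes with such a symbol, 109 were members, 45 *gst* and 64 *ugt* genes, among 17457 genes of the table that met the same count rule. The 7 that fell short were *gst-8*, *gst-17*, *gst-18*, *gst-25*, *ugt-34*, *ugt-35* and *ugt-38*. No measured difference between groups entered this rule.

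Each of 6 groups held 6 libraries. They are labelled *eat-2*, *ife-2*, *osm-5* and wild type, all at 20 °C, and *glp-1* and wild type, both at 25 °C. The strains were *eat-2(ad1116)*, a model of dietary restriction through poor feeding, *ife-2(ok306)*, which lacks an isoform of the translation factor eIF4E, *osm-5(p813)*, which is defective in sensory cilia, *glp-1(e2141)*, a temperature-sensitive mutant in which germ cells do not proliferate at the restrictive temperature, and N2 wild type. Worms of every group fed on OP50 bacteria, and each mutation is represented by 1 strain. The labels disagree among themselves on 2 points, since the growth entry gives 20 °C also for libraries labelled 25 °C, and the stage is given both as prefertile young adult and as the first day of adulthood.

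Enzymes of both families act in the conjugation step of detoxification. Glutathione S-transferases join the tripeptide glutathione to reactive compounds, among them aldehydes from oxidized lipids, and UDP-glucuronosyltransferases join a sugar to small lipophilic molecules, so that the products can be pumped out of the cell. In worms many of these genes are expressed in the intestine, several are targets of the oxidative stress factor SKN-1, and *gst-4* is the usual reporter of that pathway.

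Several libraries did not carry what their label would lead one to look for, so groups are named below as labelled. The *ife-2* transcript had 3.15 to 3.88 CPM (a gene's share of its library's counts on the usual per-megaread scale, with the total corrected for library make-up by TMM) in the *eat-2*-labelled libraries and 60.7 to 77.6 CPM in the *ife-2*-labelled libraries, against 22.6 to 24.9 CPM in wild type 20 °C. The summed level of 20 germ line genes was 157.8 to 189.8 CPM in the *ife-2*-labelled libraries and 4294 to 5729 CPM in wild type 20 °C, while in the *glp-1*-labelled libraries it was 3115 to 5031 CPM, against 4207 to 6574 CPM in wild type 25 °C. The P granule gene *pgl-1* was nearly absent from the *ife-2*-labelled libraries alone, with at most 0.70 CPM. Intestinal markers were present in every group, with a summed level of 14 genes between 3748 and 15280 CPM. Replicate 3 of the *osm-5*-labelled group stood apart, with a TMM factor of 0.427 where the factors of the other libraries were 0.694 or above, and the main *osm-5* results are given with and without it. Total counts were 35524715 to 55878280 per library.

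The *gst* genes lie mainly on chromosome II, with 23 of 45, and the *ugt* genes on chromosome V, with 39 of 64. Levels are given per kilobase of exon here, the scale on which genes of unequal length can be compared. The highest *gst* means over the 36 libraries, in CPM per kilobase, were *gst-1* 172.4, *gst-10* 130.5, *gst-7* 83.1 and *gst-5* 80.9. *gst-27* came next with 76.0. These means include *osm-5* replicate 3, which had 788.5 CPM of *gst-5* where no other library had above 87.1 CPM. For *gst-7* it had 286.5 CPM, against at most 89.0 CPM elsewhere. The order without that library was not computed. The highest *ugt* means were *ugt-22* 87.9, *ugt-62* 59.7, *ugt-47* 53.3 and *ugt-26* 48.9 CPM per kilobase.

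Both families were most abundant in the *ife-2*-labelled libraries. The summed *gst* level had a median of 571 CPM for *eat-2*, 1186 for *ife-2*, 683 for *osm-5*, 624 for *glp-1*, 632 in wild type 25 °C and 582 in wild type 20 °C. The summed *ugt* level had medians of 1198, 2678, 1322, 1154, 1318 and 843 CPM in the same order. All 6 sums of the *ugt* genes in wild type 20 °C, 814 to 876 CPM, lay below those of the 30 other libraries, the lowest of which was *osm-5* replicate 3 with 946 CPM. With total counts alone as the scale, wild type 20 °C had 866 to 1039 CPM, the lowest *eat-2*-labelled library 1039 CPM and *osm-5* replicate 3 403 CPM. Under TMM the *gst* sum of *osm-5* replicate 3 was 3634 CPM, against 596 CPM in the lowest *osm-5*-labelled library and 1403 CPM in the highest *ife-2*-labelled library. Of the 45 *gst* genes 34, and of the 64 *ugt* genes 49, had their highest group median in the *ife-2*-labelled group, which held the highest median of 42.3% of all 17457 genes. Leaving out *osm-5* replicate 3, all *ife-2*-labelled libraries lay above every other library for 22 *gst* and 27 *ugt* genes, as for 20.5% of all genes. With that library left out as well, all 6 wild type 20 °C libraries lay below every other library for 9 *ugt* and 2 *gst* genes, as for 1.72% of all genes.

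**Figure D1:**
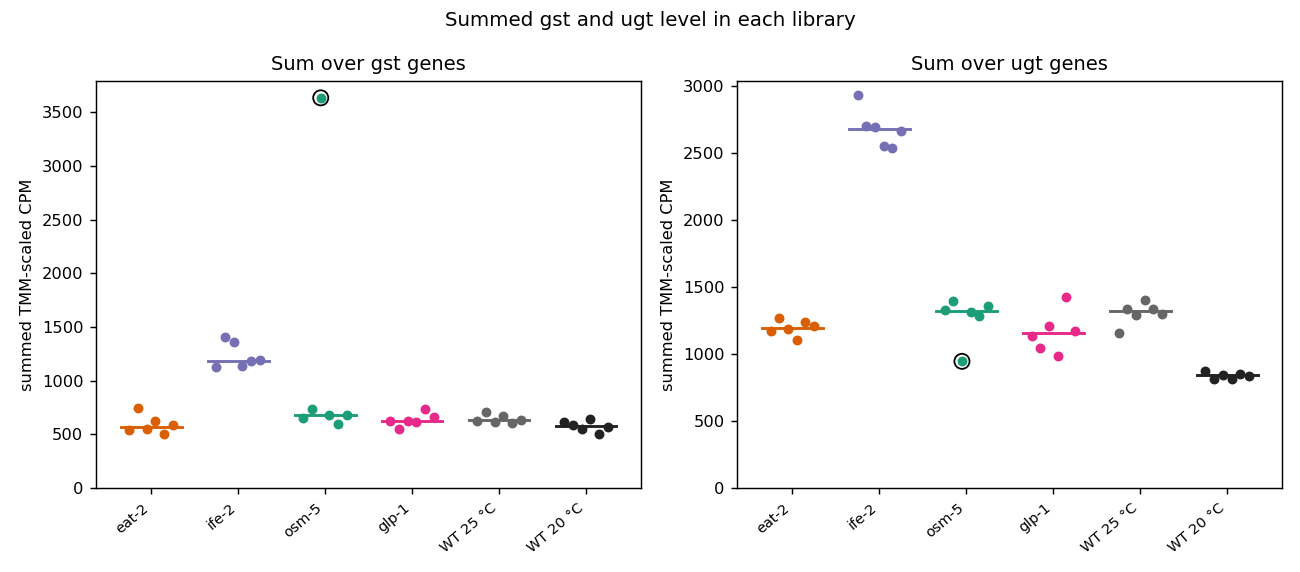
Summed TMM-scaled CPM of the 45 *gst* genes (left) and the 64 *ugt* genes (right), 1 point per library, with the median of each labelled group as a line. The circled point is *osm-5* replicate 3, at 3634 CPM for *gst* and 946 CPM for *ugt*. The *ife-2*-labelled medians are 1186 and 2678 CPM, and the 6 wild type 20 °C libraries are the lowest in the *ugt* panel.

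The 3 mutants labelled 20 °C were compared with wild type 20 °C, the *glp-1*-labelled libraries with wild type 25 °C, and wild type 25 °C with wild type 20 °C, each with edgeR's quasi-likelihood test on 12 libraries. Genes passed the test, and are said to rise or fall, where the p adjusted by Benjamini and Hochberg over all genes tested was below 0.01. Fold changes are log2 values. The value after ± is an approximate standard error, the size of the fold change divided by the square root of the test's F statistic. The *eat-2*, *ife-2*, *osm-5* and wild type 25 °C comparisons share the 6 wild type 20 °C libraries, and the *glp-1* and wild type 25 °C comparisons share the 6 wild type 25 °C libraries, so their values stand side by side below and are not independent.

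**Figure D2:**
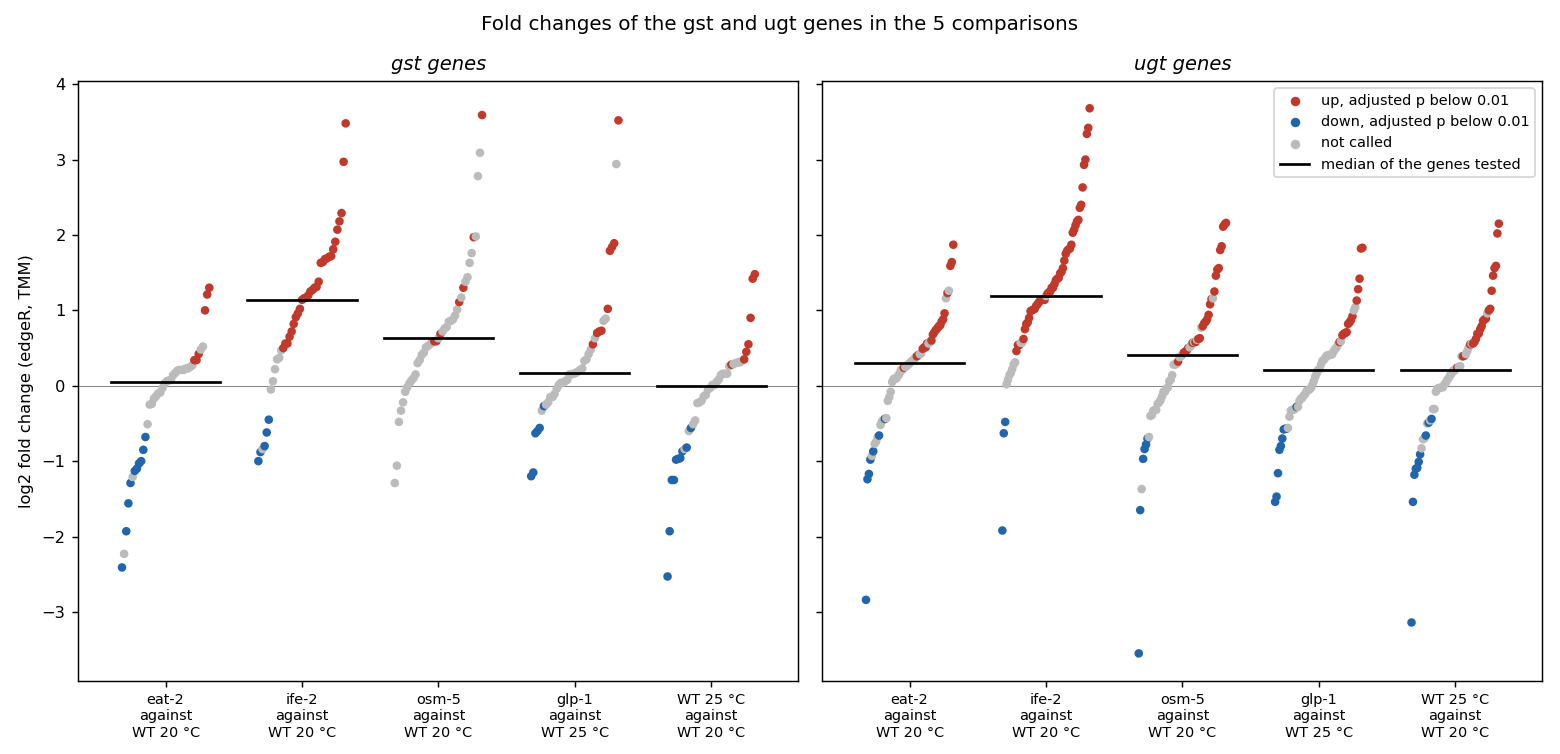
Log2 fold change (vertical axis) of each *gst* gene (left) and *ugt* gene (right) tested in the 5 comparisons, sorted within a comparison, with red for genes called up, blue for genes called down and grey for those not called. Black lines are medians, which reach 1.14 for *gst* and 1.19 for *ugt* genes in the *ife-2*-labelled libraries and lie between -0.01 and 0.63 elsewhere.

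*gst-4* (WBGene00001752, chromosome IV, 10142225 to 10143099) had 8.48, 9.98, 10.7, 11.3, 11.3 and 12.4 CPM in the *eat-2*-labelled libraries and 41.5, 47.0, 48.1, 48.4, 51.7 and 54.5 CPM in the *ife-2*-labelled libraries. In the *osm-5*-labelled libraries it had 18.6, 19.7, 21.9, 22.2 and 22.3 CPM, and 430 CPM in replicate 3. It had 18.7, 22.3, 26.2, 27.8, 32.5 and 39.4 CPM in the *glp-1*-labelled libraries, 15.5, 16.4, 16.6, 17.3, 18.3 and 18.5 CPM in wild type 25 °C, and 10.4, 10.50, 10.8, 11.1, 12.4 and 14.1 CPM in wild type 20 °C. The *eat-2*-labelled and wild type 20 °C libraries overlapped and were the lowest, and no *ife-2*-labelled library overlapped a library of another group except for *osm-5* replicate 3, which stood above all. *gst-4* rose in the *ife-2*-labelled libraries by 2.18 ± 0.08 (adjusted p = 4.65e-13), in the *glp-1*-labelled libraries by 0.72 ± 0.15 (adjusted p = 0.00199) and in wild type 25 °C by 0.55 ± 0.08 (adjusted p = 0.000209). In the *eat-2*-labelled libraries the difference was -0.10 ± 0.11 (adjusted p = 0.423). In the *osm-5*-labelled libraries it was 3.09 ± 0.93 with all 6 libraries (adjusted p = 0.0253), and without replicate 3 *gst-4* rose by 0.87 ± 0.08 (adjusted p = 7.39e-07). Exons of *gst-4* overlap those of *dhs-12* on the same strand, and *dhs-12* had up to 446 CPM in the *osm-5*-labelled group.

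In the *eat-2*-labelled libraries 6 of 42 *gst* genes tested rose and 10 fell, where 18.4% of all genes tested rose and 12.8% fell. The median *gst* difference was 0.04, beside 0.01 over all genes. *gst-10*, which conjugates aldehydes from oxidized lipids, had 46.2, 73.9 and 87.7 CPM (lowest, median and highest library) in *eat-2* and 18.5, 29.2 and 35.7 CPM in wild type 20 °C, with no overlap, and rose by 1.30 ± 0.16 (adjusted p = 4.95e-05). *gst-38* (1.21 ± 0.23) and *gst-9* (1.0 ± 0.14) rose as well. The falls were led by *gst-14*, with 0.019, 0.072 and 0.44 CPM in *eat-2*, against 0.64, 0.76 and 0.89 CPM in wild type 20 °C (-2.41 ± 0.50, adjusted p = 0.00188), and by *gst-34* (-1.93 ± 0.34) and *gst-30* (-1.56 ± 0.28). *gst-12* (-1.13), *gst-16* (-0.85) and *gst-7* (-0.68) fell without overlap between the groups. Scaled by total counts alone, which set the median of all genes to -0.11, 3 *gst* genes rose and 13 fell.

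Against wild type 25 °C, a comparison added after seeing the data because the labels give both temperatures, the *eat-2*-labelled libraries showed hardly any of these differences. Of 41 *gst* genes 0 rose by edgeR (2 at an unadjusted p below 0.05) and 1 fell, *gst-4* by 0.67. Of 61 *ugt* genes 0 rose by edgeR (3 at an unadjusted p below 0.05) and 2 fell, *ugt-63* by 1.18 and *ugt-1* by 0.64 (adjusted p = 0.00514 and 0.00953). Over all genes 0.0920% rose and 0.196% fell. The *gst-10* difference was then -0.13 ± 0.16 and that of *gst-38* was -0.28 ± 0.24.

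The *ife-2*-labelled libraries differed most. Of 43 *gst* genes tested 31 rose and 5 fell, where 44.1% of all genes rose and 40.9% fell, and the median *gst* difference was 1.14, beside 0.17 over all genes. *gst-19*, counted among the 31, passed the count filter in no other of the 5 comparisons. It missed the filter here too without *ife-2* replicate 1, 3, 4, 5 or 6 or wild type 20 °C replicate 5. TMM, DESeq2's size factors, total counts and upper-quartile scaling set the median of all genes anywhere from -0.35 to 0.62. A scaling shifts all genes nearly alike, so the *gst* median relative to that of all genes (0.96 to 0.97) cannot test it. *gst-38*, on chromosome V (15915162 to 15916070), had 11.9, 14.2 and 16.2 CPM in *ife-2* and 0.93, 1.41 and 1.64 CPM in wild type 20 °C (3.48 ± 0.12, adjusted p = 2.62e-13). *gst-10* had 160.3, 204.3 and 309 CPM in *ife-2* and 18.5, 29.2 and 35.7 CPM in wild type 20 °C (2.97 ± 0.17, adjusted p = 1.09e-10). *gst-29* rose by 2.29, *gst-9* by 2.07, *gst-24* by 1.91, *gst-5* by 1.64, *gst-22* by 1.38 and *gst-27* by 1.16.

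The 5 *gst* genes that fell in the *ife-2*-labelled libraries were *gst-12* (-1.0 ± 0.14), *gst-14* (-0.88 ± 0.16), *gst-16* (-0.80 ± 0.14), *gst-30* (-0.62 ± 0.19) and *gst-7* (-0.45 ± 0.08). The call of *gst-30* was lost without *ife-2* replicate 3, 4, 5 or 6 (-0.61 to -0.56). Against wild type 25 °C 0 of 43 fell by edgeR (0 at an unadjusted p below 0.05) and 34 rose, 29 of them among the 31 that rose against wild type 20 °C, where 43.1% of all genes rose and 38.4% fell. *gst-30*, which fell against wild type 20 °C, was among the 34 that rose (0.53 ± 0.17, adjusted p = 0.00878 by edgeR). With total counts alone 22 *gst* genes rose and 7 fell, and with upper-quartile scaling 36 rose and 1 fell.

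Beside these values, all 20 germ line genes fell in the *ife-2*-labelled libraries (median -8.15), and 14 of 14 intestinal (median 1.33), 5 of 5 muscle (0.95) and 6 of 6 yolk genes (2.26) rose. The summed intestinal level was 9933 to 15280 CPM in *ife-2* and 4330 to 4470 CPM in wild type 20 °C. The median *gst* and *ugt* differences thus lay between those of the muscle and the intestinal list, and the part of tissue make-up in them was not tested. In RNA of whole worms, fewer cells of a type and less RNA per cell cannot be told apart.

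In the *osm-5*-labelled libraries 7 of 43 *gst* genes rose and 0 fell by edgeR (3 fell at an unadjusted p below 0.05, and 2 by DESeq2), where 7.01% of all genes rose and 10.9% fell. *gst-38* (3.59 ± 0.84, adjusted p = 0.00694), *gst-10* (1.97 ± 0.39) and *gst-24* (1.30 ± 0.31) led the rises. Without any 1 of the wild type 20 °C libraries the number that rose was 4, and the calls of *gst-38* (3.48 to 3.61), *gst-24* (1.19 to 1.36) and *gst-15* were lost, those of *gst-24* also without *osm-5* replicate 1, 2, 4 or 6 and of *gst-15* without 2 or 4. Without replicate 3, 11 of 41 *gst* genes rose and 7 fell, where 21.4% and 23.6% of all genes did, all 7 earlier calls remained, and the *gst* median was 0.02 instead of 0.63. The difference of *gst-38* was then 1.88 ± 0.18, of *gst-10* 1.39 ± 0.13 and of *gst-24* 0.87 ± 0.13. *gst-14* (-1.77 ± 0.28), *gst-30* (-0.89 ± 0.19) and *gst-7* (-0.40 ± 0.06) passed the test only in the comparison without replicate 3, where they fell. Scaled by total counts alone, which set the median of all genes to -0.27, 4 rose and 1 fell. Against wild type 25 °C, with all 6 libraries, 2 of 41 rose (*gst-20* and *gst-24*) and 0 fell by edgeR (1 at an unadjusted p below 0.05). There 2.14% of all genes rose and 4.97% fell. Against wild type 25 °C without replicate 3, 8 of 40 rose (*gst-4*, *gst-5*, *gst-12*, *gst-15*, *gst-20*, *gst-24*, *gst-29* and *gstk-1*) and 0 fell by edgeR (4 at an unadjusted p below 0.05), where 6.58% of all genes rose and 10.0% fell.

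*osm-5* replicate 3 was above all 35 other libraries for 28 of 45 *gst* genes (62.2%), as for 28.2% of all 17457 genes, and below all others for 1. For the *ugt* genes the counts were 2 of 64 above and 22 below (34.4%, beside 22.7% of all genes). The median *gst* gene had 4.51 times the median of the other 5 *osm-5*-labelled libraries, and the median *ugt* gene 0.71 times. *gst-30* had 50.2 CPM against 1.12 to 1.74 CPM in those 5, *gst-5* had 788.5 against 30.8 to 49.6 CPM, *gst-4* had 430 against 18.6 to 22.3 CPM, and *gst-1* had 593.6 against 120.2 to 132.3 CPM. With total counts alone, *gst-4* still had 183.3 CPM against a median of 22.3 CPM, 18 of 45 *gst* genes were above all other libraries (40%, beside 17.1% of all genes) and 48 of 64 *ugt* genes below (75%, beside 41.0%).

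The level in replicate 3 moved with gene length over the whole table. Protein-coding genes of 500 to under 700 exon bases had a median of 6.20 times the other 5 libraries, those of 700 to under 900 bases 2.39 times, those of 1500 to under 2000 bases 0.70 times, and those of 3000 bases or more 0.56 times. The *gst* genes have 630 to 1203 exon bases and the *ugt* genes 1542 to 2909. Other protein-coding genes with the exon lengths of the middle 80% of *gst* genes had a median of 2.27 times, and those with the lengths of the middle 80% of *ugt* genes 0.69 times. Some short transcripts of the glutathione system were high there. Glutaredoxin *glrx-10* (414 exon bases) had 942 CPM against 27.5 to 28.6 CPM, and glutathione peroxidase *gpx-1* (565 exon bases) had 145.6 against 15.4 to 17.1 CPM. The peroxidases *gpx-8* (438 exon bases), *gpx-3* (797) and *gpx-5* (906) were not, with 0.73, 0.88 and 0.72 times the median of the other 5 libraries. *gcs-1*, the rate-limiting enzyme of glutathione synthesis (2335 exon bases), had 62.0 against 97.8 to 106.8 CPM. The part of gene length in the *gst* and *ugt* values of this library was not tested. In the comparison without replicate 3 the median difference was 0.06 for genes of 700 to under 900 bases and -0.01 for those of 1500 to under 2000.

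**Figure D3:**
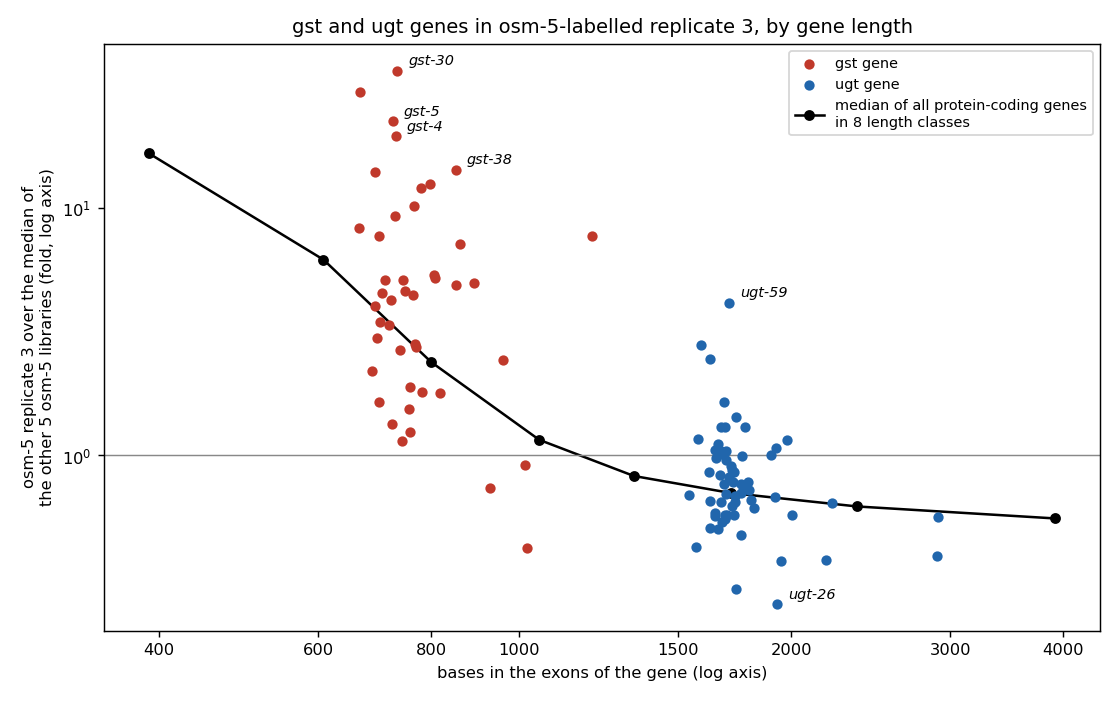
Level in *osm-5* replicate 3 divided by the median of the other 5 *osm-5*-labelled libraries (vertical axis, log scale) against the bases in the exons of the gene (horizontal axis, log scale) for *gst* genes in red and *ugt* genes in blue. The black line joins the medians of all protein-coding genes in 8 length classes. *gst-30*, *gst-5* and *gst-4* lie at 36.1, 22.5 and 19.6 times, above the 2.39 times of their length class, and the *ugt* genes spread around a line near 0.70 times.

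In the *glp-1*-labelled libraries 9 of 42 *gst* genes rose and 6 fell relative to wild type 25 °C, where 12% of all genes rose and 10.9% fell. *gst-24* had 7.56, 9.46 and 15.3 CPM in *glp-1* and 2.46, 2.76 and 3.10 CPM in wild type 25 °C, with no overlap (1.89 ± 0.17, adjusted p = 3.51e-06). *gst-29* had 1.33, 2.09 and 2.39 CPM in *glp-1* and 0.45, 0.54 and 0.69 CPM in wild type 25 °C (1.84 ± 0.17, adjusted p = 4.87e-06). *gst-14* (1.79 ± 0.32), *gst-12* (1.02 ± 0.15) and *gst-5* (0.70 ± 0.15) rose, and *gst-22* (-1.20 ± 0.20), *gst-38* (-1.15 ± 0.19) and *gst-27* (-0.63 ± 0.09) fell. The value of *gst-33*, 3.52 ± 0.79, rested on 2 libraries with 69.7 and 26.9 CPM, where the other 4 had 2.01 to 6.17 CPM and wild type 25 °C 1.47 to 2.04 CPM, and it did not pass the test without wild type 25 °C replicate 2 (3.48 ± 0.89) or 6 (3.52 ± 0.89).

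With wild type 20 °C in place of wild type 25 °C, 10 of 43 *gst* genes rose and 6 fell in the *glp-1*-labelled libraries, where 14.2% and 13.9% of all genes did. *gst-4*, *gst-5*, *gst-24*, *gst-29* and *gst-39* rose against both wild types, and *gst-22*, *gst-27* and *gst-28* fell against both. *gst-38* (0.32 ± 0.17), *gst-14* (-0.14 ± 0.17) and *gst-12* (-0.23 ± 0.16) did not pass the test against wild type 20 °C. With total counts alone, which set the median of all genes to 0.21, 12 rose and 4 fell relative to wild type 25 °C.

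In wild type 25 °C 7 of 42 *gst* genes rose and 10 fell relative to wild type 20 °C, where 13% of all genes rose and 11% fell. *gst-38* had 2.82, 3.77 and 5.29 CPM at 25 °C and 0.93, 1.41 and 1.64 CPM at 20 °C (1.48 ± 0.17, adjusted p = 2.47e-05). *gst-10* rose by 1.42 ± 0.16 and *gst-9* by 0.90 ± 0.15. *gst-14* had 0.050, 0.23 and 0.33 CPM at 25 °C and 0.64, 0.76 and 0.89 CPM at 20 °C (-1.93 ± 0.28, adjusted p = 0.000127), and *gst-12* (-1.25), *gst-30* (-1.25) and *gst-16* (-0.82) fell. *gst-33* fell by 2.53 ± 0.64, a call lost without wild type 20 °C replicate 6 or any 1 of the wild type 25 °C libraries (-2.58 to -2.48), with 2.88 to 8.59 CPM in 5 of the wild type 20 °C libraries and 35.8 CPM in replicate 2. Scaling by total counts alone, which set the median of all genes to -0.18, gave 4 rises and 12 falls. The number that fell dropped to 6 without wild type 25 °C replicate 2, 5 or 6 or without wild type 20 °C replicate 6.

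**Figure D4:**
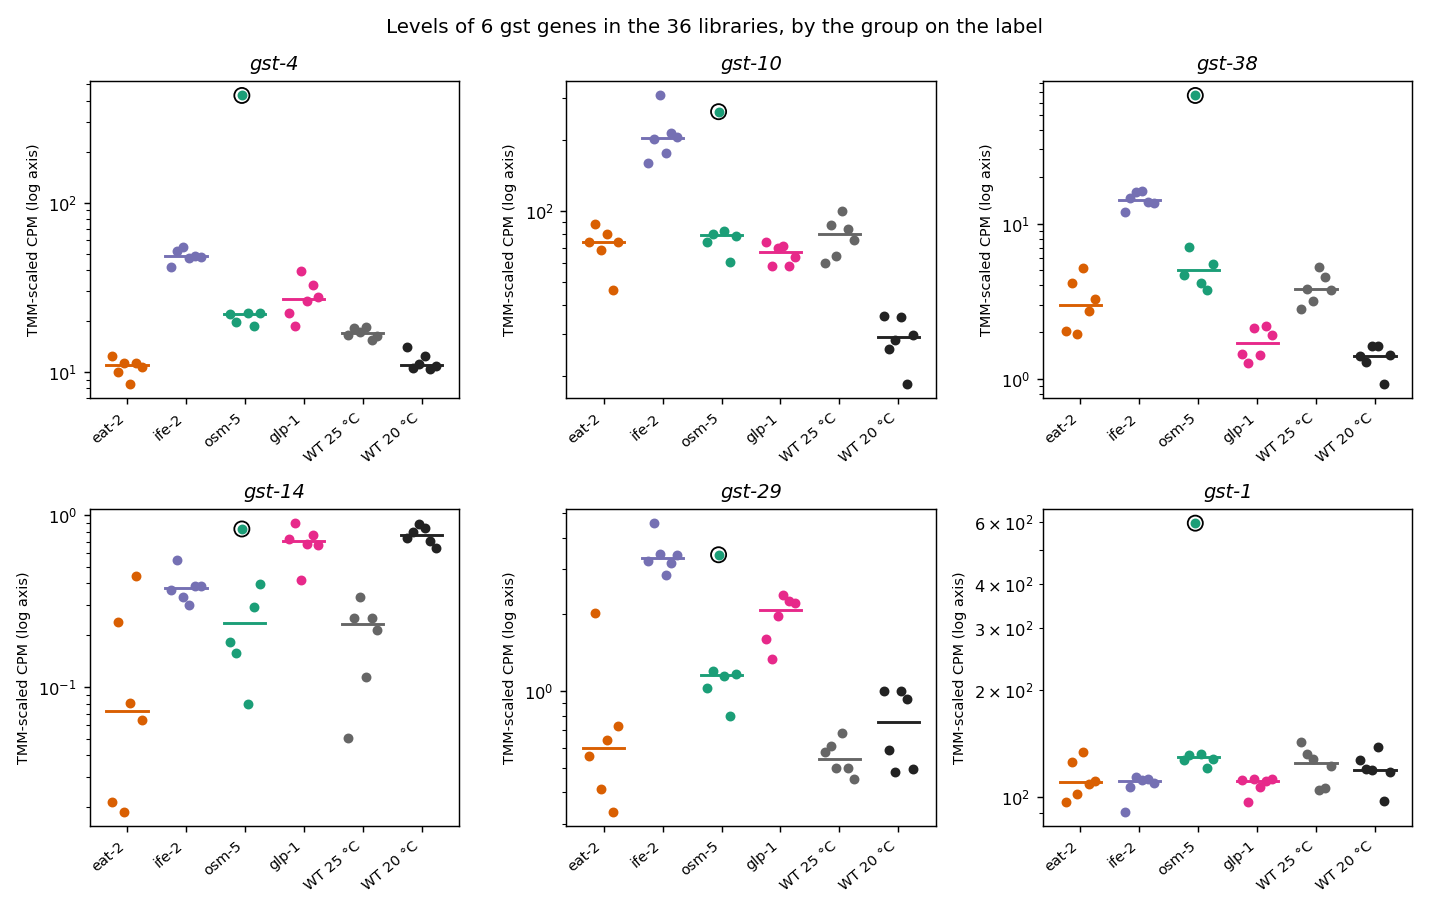
TMM-scaled CPM (log axes) of 6 *gst* genes in each of the 36 libraries, with the group median as a line and *osm-5* replicate 3 circled. *gst-4*, *gst-10*, *gst-38* and *gst-29* are highest in the *ife-2*-labelled group apart from the circled library, *gst-14* is highest in *glp-1* and wild type 20 °C, and *gst-1* differs little apart from the circled library, with group medians of 110 to 130 CPM.

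Runs of neighbouring *gst* genes on chromosome II held calls of unequal number and direction, beside the shares of all genes given above for each comparison. In a run of 7 genes between 13608154 and 13627145 (*gst-20*, *gst-24*, *gst-15*, *gst-14*, *gst-12*, *gst-16* and *gst-19*), 4 fell in *eat-2*, 4 rose and 3 fell in *ife-2*, 2 rose in *osm-5* (without replicate 3 also 1 fall, *gst-14*), 4 rose in *glp-1* and 4 fell in wild type 25 °C. A run of 9 genes between 15163817 and 15185389 holds *gst-27*, *gst-29* and *gst-34*. There 2 rose and 1 fell in *eat-2*, 6 rose in *ife-2*, and *gst-31* fell in *osm-5* without replicate 3. In *glp-1* 2 rose and 3 fell, and in wild type 25 °C 2 rose and 2 fell.

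No *gst* gene rose in all 4 mutant comparisons, beside 0.166% of all genes. *gst-38* alone was called in all 5 (2.22% of the *gst* genes, beside 1.79% of all genes). *gst-10*, *gst-24*, *gst-38* and *gst-39* rose in 3 of the 4. The *eat-2* rises of *gst-10*, *gst-38* and *gst-39* did not pass the test against wild type 25 °C (-0.13, -0.28 and 0.25). *gst-1*, the highest *gst* gene per kilobase, was called in none, with group medians between 109.7 CPM in *eat-2* and 129.6 CPM in *osm-5* and differences from -0.15 in *glp-1* to 0.88 in *osm-5* (adjusted p between 0.125 and 0.929 by edgeR), where the value without replicate 3 was 0.11 ± 0.06. *gstk-2*, a kappa class enzyme, was not called either, with differences from -0.17 to 0.34, the highest that of *osm-5* (0.10 without replicate 3). *gsto-2*, an omega class enzyme, was not called, with differences from -0.84 to 0.89 and at most 0.77 CPM in any library. *gst-32* was tested in the *osm-5* comparison alone and not called there. *gst-37* was too low to be tested in any of the 5 main comparisons, with 0.14 to 0.50 CPM in wild type 20 °C, at most 0.24 CPM in *glp-1* and at most 0.079 CPM in the other groups. It was tested in the *glp-1*-labelled libraries against wild type 20 °C and not called there (-2.26 ± 0.63, adjusted p = 0.0109 by edgeR).

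Among the *ugt* genes, rises were more numerous than falls in each comparison. In the *eat-2*-labelled libraries 21 of 61 *ugt* genes tested rose (34.4%, beside the 18.4% of all genes) and 7 fell (11.5%, beside 12.8%), with a median of 0.30. *ugt-26* (WBGene00015695, chromosome I, 4721131 to 4723982) had 73.8, 95.1 and 106.9 CPM in *eat-2* and 21.2, 24.2 and 27.6 CPM in wild type 20 °C, with no overlap (1.87 ± 0.10, adjusted p = 3.11e-08). *ugt-53* rose by 1.64 ± 0.14, *ugt-30* by 1.59 ± 0.10 and *ugt-41* by 0.96 ± 0.14. The level of *ugt-18* was 0.19, 0.22 and 0.52 CPM in *eat-2* and 1.65, 1.94 and 2.76 CPM in wild type 20 °C (-2.84 ± 0.24, adjusted p = 2.7e-06), and *ugt-4* (-1.24), *ugt-40* (-1.17) and *ugt-54* (-0.98) fell. With total counts alone 15 rose and 10 fell, and DESeq2 gave 24 and 14. As given above, these rises did not pass edgeR's test against wild type 25 °C, with *ugt-26* at -0.29 ± 0.10 and *ugt-53* at -0.40 ± 0.14.

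In the *ife-2*-labelled libraries 50 of 63 *ugt* genes rose (79.4%, beside 44.1% of all genes) and 3 fell (4.76%, beside 40.9%), with a median of 1.19. *ugt-27*, counted among the 50, passed the count filter in no other of the 5 comparisons. *ugt-53* had 23.3, 37.3 and 50.5 CPM in *ife-2* and 2.36, 3.10 and 3.52 CPM in wild type 20 °C (3.68 ± 0.17, adjusted p = 6.47e-12). *ugt-41* had 97.8, 111.2 and 168.1 CPM in *ife-2* and 9.96, 12 and 15.03 CPM in wild type 20 °C (3.42 ± 0.15, adjusted p = 3.2e-12). *ugt-26* rose by 3.34 ± 0.10, *ugt-63* by 3.00 ± 0.17, *ugt-30* by 2.40 ± 0.11 and *ugt-22* by 2.36 ± 0.11. *ugt-57*, *ugt-42* and *ugt-4* fell, by 1.92, 0.63 and 0.48, and the call of *ugt-4* was lost without *ife-2* replicate 1, 2, 3, 5 or 6 (-0.49 to -0.44). Against wild type 25 °C 52 of 63 rose and 0 fell by edgeR (1 at an unadjusted p below 0.05), 45 of the rises among the 50 above, and *ugt-4* rose by 0.97 ± 0.13. Of all genes, 43.1% rose and 38.4% fell against wild type 25 °C. The intestinal and muscle values beside these rises are those given for the *gst* genes.

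In the *osm-5*-labelled libraries 25 of 61 *ugt* genes rose (41.0%, beside 7.01% of all genes) and 6 fell (9.84%, beside 10.9%), with a median of 0.41. Under total counts alone, which set the median of all genes to -0.27, 7 *ugt* genes rose and 5 fell. Without replicate 3, 32 rose and 8 fell, with a median of 0.47, where 21.4% and 23.6% of all genes did, and all 31 earlier calls remained. *ugt-32* had 1.27, 2.11 and 2.53 CPM in *osm-5* and 0.32, 0.44 and 0.75 CPM in wild type 20 °C (2.16 ± 0.24, adjusted p = 4.78e-05, and 2.22 ± 0.20 without replicate 3). *ugt-63* had 35.05, 49.6 and 52.1 CPM in *osm-5* and 8.55, 11.4 and 14.4 CPM in wild type 20 °C (2.11 ± 0.14, and 2.15 ± 0.11 without replicate 3). *ugt-26* had 70.7 to 95.3 CPM in 5 of the *osm-5*-labelled libraries and 20.2 CPM in replicate 3, below the 21.2 CPM of the lowest wild type 20 °C library, and rose by 1.54 ± 0.27 with and 1.71 ± 0.09 without that library.

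The largest fall of any member in this comparison was that of *ugt-57*, on chromosome X (6991727 to 6994162). It had 0.11, 0.27 and 0.54 CPM in *osm-5* and 2.50, 3.99 and 4.13 CPM in wild type 20 °C (-3.55 ± 0.29, adjusted p = 5.03e-06, and -3.43 ± 0.22 without replicate 3). Levels of *ugt-57* varied widely within other groups, from 0.29 to 10.48 CPM in *eat-2*, from 1.44 to 7.52 CPM in *glp-1* and from 0.20 to 4.93 CPM in wild type 25 °C. *ugt-42* (-1.65 ± 0.24), *ugt-54* (-0.97 ± 0.10) and *ugt-4* (-0.78 ± 0.18) fell too, and without replicate 3 their differences were -1.52, -1.0 and -0.92. The call of *ugt-4* was lost without any 1 of *osm-5* replicates 1, 2, 4, 5 and 6 or of wild type 20 °C replicates 2, 3, 4 and 6 (-0.80 to -0.67). Against wild type 25 °C, with all 6 libraries, 7 of 61 rose and 2 fell, where 2.14% of all genes rose and 4.97% fell, and *ugt-9*, *ugt-11*, *ugt-14*, *ugt-32*, *ugt-44* and *ugt-45* rose against both wild types, the call of *ugt-45* against wild type 20 °C being lost without any 1 of *osm-5* replicates 1, 4, 5 and 6 and wild type 20 °C replicates 2, 3, 5 and 6 (0.27 to 0.33). Without replicate 3, 20 of 61 rose against wild type 25 °C and 6 fell, with *ugt-26* and *ugt-57* among the falls. In that comparison 6.58% of all genes rose and 10.0% fell. Beside these values, the hypodermis and cuticle list stood apart in the *osm-5*-labelled libraries, where 6 of 10 genes fell (7 without replicate 3) and 1 rose, and 1 of 14 intestinal genes rose (7 rose and 3 fell without replicate 3). Of 6 yolk genes 3 rose (5 without replicate 3), and 3 of 5 muscle genes fell and 3 of 6 sperm genes rose in the comparison without replicate 3. Their part in the *ugt* values was not tested.

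In the *glp-1*-labelled libraries 14 of 62 *ugt* genes rose (22.6%, beside 12% of all genes) and 10 fell (16.1%, beside 10.9%), with a median of 0.22. *ugt-56* had 1.11, 1.36 and 1.94 CPM in *glp-1* and 0.20, 0.43 and 0.55 CPM in wild type 25 °C (1.82 ± 0.22, adjusted p = 3.59e-05). *ugt-18* (1.83 ± 0.39), *ugt-52* (1.42 ± 0.20) and *ugt-4* (1.28 ± 0.15) rose. *ugt-26* had 30.5, 38.01 and 43.5 CPM in *glp-1* and 93.7, 113.8 and 121.3 CPM in wild type 25 °C (-1.54 ± 0.11, adjusted p = 3.06e-07), and *ugt-63* (-1.47 ± 0.23), *ugt-53* (-1.16 ± 0.19) and *ugt-30* (-0.58 ± 0.11) fell. With total counts alone 20 rose and 8 fell. Of the germ line genes 5 of 20 fell in this comparison, and of the intestinal genes 2 of 14 rose and 4 fell, and their part in these values was not tested.

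The direction of several of these differed with the control. Against wild type 20 °C 25 of 62 *ugt* genes rose in the *glp-1*-labelled libraries and 3 fell, where 14.2% of all genes rose and 13.9% fell. *ugt-26* (0.61 ± 0.10), *ugt-53* (0.86 ± 0.19) and *ugt-30* (0.88 ± 0.10) then rose, with *ugt-29*, *ugt-46* and *ugt-48*, all of which fell against wild type 25 °C, and *ugt-18* (-1.31 ± 0.23) and *ugt-54* (-0.48 ± 0.13) fell. *ugt-5*, *ugt-11*, *ugt-25*, *ugt-32*, *ugt-39*, *ugt-41* and *ugt-56* rose against both wild types, the calls of *ugt-32* and *ugt-41* against wild type 25 °C being lost when 1 library was left out (*ugt-32* at 0.65 without wild type 25 °C replicate 5 and 0.68 without *glp-1* replicate 2).

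In wild type 25 °C 22 of 62 *ugt* genes rose (35.5%, beside 13% of all genes) and 10 fell (16.1%, beside 11%) relative to wild type 20 °C, with a median of 0.22. *ugt-26* rose by 2.15 ± 0.08 (adjusted p = 1.1e-09), *ugt-53* by 2.02 ± 0.10, *ugt-63* by 1.59 ± 0.17, *ugt-41* by 1.56 ± 0.11 and *ugt-30* by 1.46 ± 0.09. *ugt-18* had 0.12, 0.15 and 0.58 CPM at 25 °C and 1.65, 1.94 and 2.76 CPM at 20 °C (-3.14 ± 0.32, adjusted p = 7.95e-06). *ugt-4* had 2.40, 3.07 and 4.17 CPM at 25 °C and 6.71, 8.81 and 13.6 CPM at 20 °C (-1.54 ± 0.19), and *ugt-54* (-1.18), *ugt-52* (-1.10), *ugt-42* (-1.01) and *ugt-56* (-0.91) fell. Of the 14 intestinal genes 7 rose in this comparison and 8 in the *eat-2* comparison, with none falling in either. Of 6 sperm genes 4 rose in wild type 25 °C and 3 in *eat-2*, of 5 muscle genes 1 and 3 rose in these 2 comparisons, and of 6 yolk genes 3 rose in wild type 25 °C and 1 fell in *eat-2*. The part of these tissues in the *ugt* values was not tested.

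**Figure D5:**
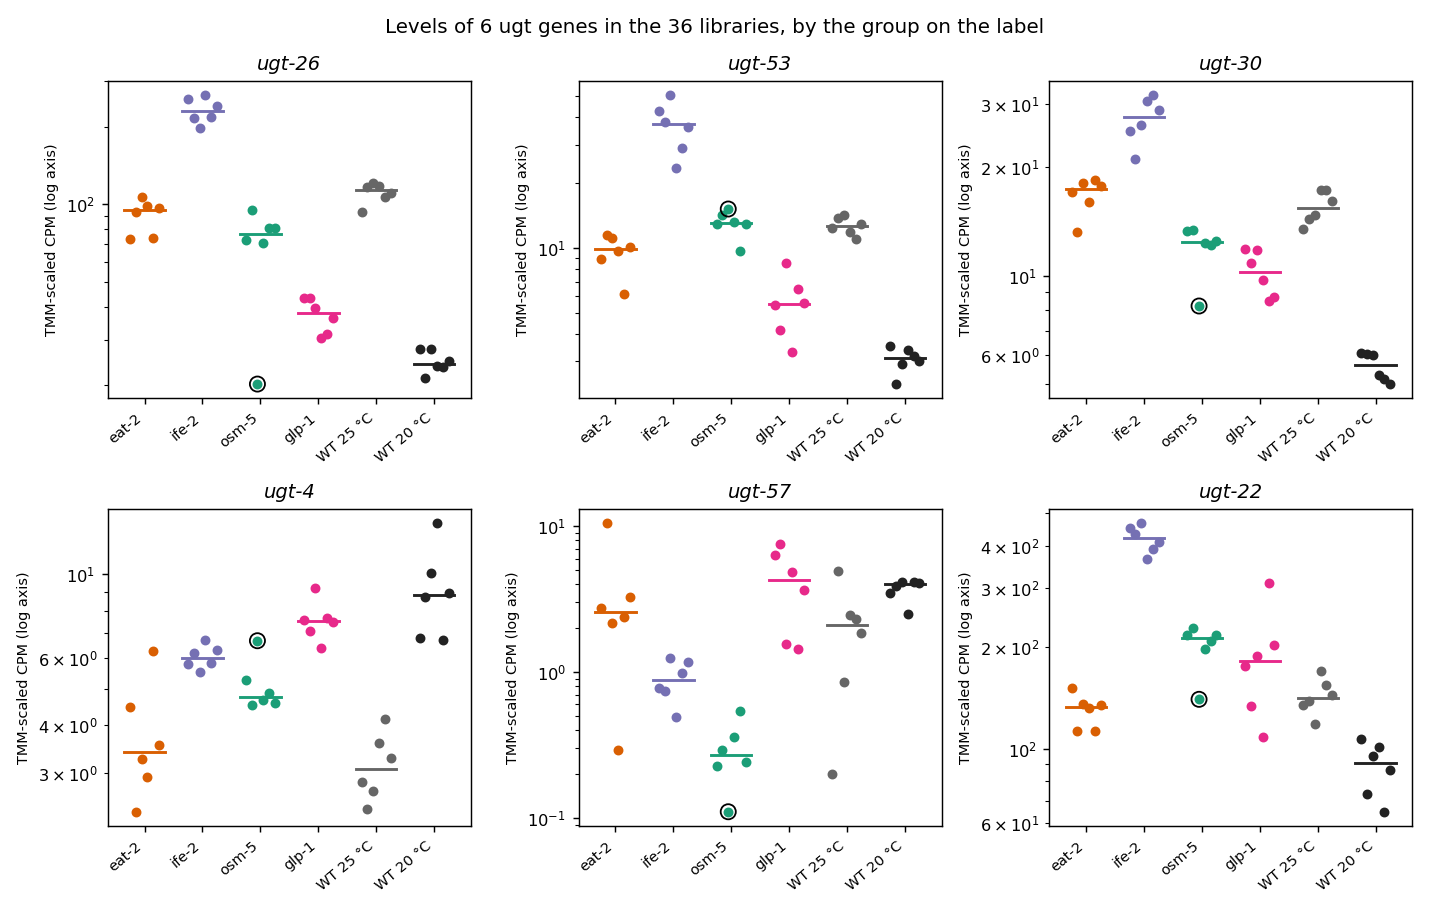
TMM-scaled CPM (log axes) of 6 *ugt* genes in each of the 36 libraries, with the group median as a line and *osm-5* replicate 3 circled. *ugt-26*, *ugt-53* and *ugt-30* have their lowest median in wild type 20 °C, the next in *glp-1* and the highest in *ife-2*, *ugt-4* runs the other way between the 2 wild types, and *ugt-57* is low in *osm-5*, at 0.11 to 0.54 CPM.

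The order of the group medians of *ugt-26* was *ife-2* (228.9 CPM), wild type 25 °C (113.8), *eat-2* (95.1), *osm-5* (76.7), *glp-1* (38.01) and wild type 20 °C (24.2). In this order wild type 25 °C and *eat-2* overlapped, as did *eat-2* and *osm-5*, whose replicate 3 lay below every *glp-1*-labelled library. The order for *ugt-22*, the *ugt* gene with the highest level per kilobase, was *ife-2* (422.7 CPM), *osm-5* (213.5), *glp-1* (182.0), wild type 25 °C (141.4), *eat-2* (133.3) and wild type 20 °C (90.7), and only *ife-2* and wild type 20 °C did not overlap a neighbour. *ugt-62* rose in *ife-2* (1.01 ± 0.06) and wild type 25 °C (0.39 ± 0.09, a call lost without wild type 20 °C replicate 3, 4 or 6), and *ugt-47* rose in *eat-2* (0.79 ± 0.08), *ife-2* (1.75 ± 0.07) and wild type 25 °C (0.75 ± 0.10), and without replicate 3 also in *osm-5* (0.68 ± 0.06).

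Runs of neighbouring *ugt* genes were called in unequal number too, beside the shares of all genes given above for each comparison. In the run of 4 on chromosome I that holds *ugt-26* (4721131 to 4735276, *ugt-25* to *ugt-28*), 3 rose with *eat-2*, 4 with *ife-2*, 1 with *osm-5* and 2 in wild type 25 °C, and 1 rose and 1 fell in *glp-1*. In the run of 8 on chromosome V between 4887165 and 4911399, 1 rose in *eat-2* and 4 in *ife-2*, 5 rose and 1 fell in *osm-5* with or without replicate 3, and 1 rose and 1 fell in *glp-1* and again in wild type 25 °C. Exons of *gst-5*, *gst-22*, *gst-32*, *gstk-2*, *ugt-10*, *ugt-22*, *ugt-25*, *ugt-40*, *ugt-47*, *ugt-48*, *ugt-57*, *ugt-59* and *ugt-64*, among the genes named, overlap a gene on the other strand, and the counting is not stated to use strand, so reads of the 2 genes may not have been told apart.

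*ugt-39* and *ugt-41*, neighbours on chromosome V, were the only members that rose in all 4 mutant comparisons with all libraries included, as did 0.166% of all 17457 genes. Against wild type 25 °C neither passed the test in *eat-2* (*ugt-39* 0.27, *ugt-41* -0.62) or in *osm-5* with all libraries (0.42 and 0.26). Both rose against it in *ife-2* (0.59 and 1.77), and in *osm-5* without replicate 3. The *eat-2* call of *ugt-39* was lost without any 1 of *eat-2* replicates 1, 3 and 5 and wild type 20 °C replicates 1, 3, 4 and 6 (0.60 to 0.68). *ugt-41* (chromosome V, 7161068 to 7163595) had medians of 22.7 CPM in the *eat-2*-labelled libraries, 111.2 with *ife-2*, 43.0 with *osm-5*, 54.8 with *glp-1* and 35.9 in wild type 25 °C, against 12 CPM in wild type 20 °C. It rose in *osm-5* by 1.85 ± 0.11 (1.87 without replicate 3) and in *glp-1* by 0.87 ± 0.20, which did not pass the test without *glp-1* replicate 5 (0.77 ± 0.20) or wild type 25 °C replicate 2 (0.84), 5 (0.83) or 6 (0.87). Of the 64 *ugt* genes 9 were called in all 5 comparisons (*ugt-4*, *ugt-12*, *ugt-26*, *ugt-30*, *ugt-41*, *ugt-46*, *ugt-48*, *ugt-53* and *ugt-64*), beside 1.79% of all genes, and 4 in none (*ugt-10*, *ugt-15*, *ugt-59* and *ugt-67*), beside 10.5% of all genes. Of those 9, at least 1 call was lost on leaving out 1 library for *ugt-12* (in *eat-2*, 0.21 to 0.24), *ugt-64* (in *ife-2* without any 1 of the wild type 20 °C libraries, 0.24 to 0.32), *ugt-48* (in *osm-5* without any 1 library other than replicate 3, 0.55 to 0.63), *ugt-4* (in *ife-2* and *osm-5*) and *ugt-41* (in *glp-1*). The libraries for *ugt-12* were *eat-2* replicates 3 and 6 and wild type 20 °C replicates 2, 3, 4 and 6. For *ugt-64*, leaving out a wild type 20 °C library also cut the genes passing the count filter, from 16636 to 14846 to 14884. The library and the filter cannot be told apart in that lost call. *ugt-15* spread from 0.21 to 1.74 CPM in *eat-2* and from 0.18 to 0.78 CPM in wild type 20 °C, with a difference of 1.16 ± 0.46 (adjusted p = 0.0501). Members up in some comparisons and down in others numbered 12 *gst* (26.7%) and 20 *ugt* genes (31.2%), beside 23.7% of all genes.

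Among the other genes of the pathway, 16 of 22 export pumps of the *mrp* and *pgp* families rose and 3 fell in the *ife-2*-labelled libraries (median 1.10, beside 44.1% of all genes up and 40.9% down). There were 8 rises and 2 falls of pumps in *eat-2* (beside 18.4% and 12.8% of all genes), 3 and 6 in *osm-5* (7.01% and 10.9%), 5 and 7 in *osm-5* without replicate 3 (21.4% and 23.6%), 5 and 2 in *glp-1* (12% and 10.9%), and 5 and 3 in wild type 25 °C (13% and 11%). The counts of peroxidases, glutaredoxins and regulators below stand against these same shares of all genes. *mrp-1*, which pumps glutathione conjugates, had 87.0, 90.4 and 106.2 CPM in *eat-2* and 23.1, 24.8 and 26.1 CPM in wild type 20 °C (1.91 ± 0.05, adjusted p = 4.66e-11), and rose by 2.92 ± 0.10 with *ife-2*, 1.67 ± 0.14 with *osm-5* (1.77 ± 0.04 without replicate 3) and 1.68 ± 0.12 in wild type 25 °C. Of 13 glutathione peroxidases and glutaredoxins, 7 rose and 5 fell in *ife-2*, 1 rose and 7 fell in *glp-1*, 2 rose in *osm-5* (5 without replicate 3), 1 rose and 1 fell in *eat-2*, and 2 rose and 1 fell in wild type 25 °C. Both genes of UDP-sugar supply, *sqv-4* (-1.06) and *sqv-7* (-1.18), fell in *ife-2*.

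The transcript of the SKN-1 gene, *skn-1*, fell in *eat-2* (-0.39 ± 0.11, adjusted p = 0.0089) and *ife-2* (-0.57 ± 0.06, adjusted p = 2.84e-07). Of 10 regulators, 5 fell in *eat-2*, 4 rose and 4 fell in *ife-2*, 1 fell in *osm-5* (5 without replicate 3), 2 rose in *glp-1* and 3 fell in wild type 25 °C. *gcs-1*, another target of SKN-1, rose in *ife-2* by 0.36 ± 0.06 and fell in *eat-2* by 0.17 ± 0.04 and in wild type 25 °C by 0.19 ± 0.05, and *glod-4*, a glyoxalase, fell in *eat-2* (-0.41), *ife-2* (-0.67) and wild type 25 °C (-0.41).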

How the data were processed

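The authors deposited 1 table of gene counts for all 36 libraries of polyA RNA. According to the submitters' processing notes, cutadapt, STAR and Salmon were used with build WBcel235, and the methods of the study add tximport, which collapses transcript estimates to genes. Tool versions and the use of strand in counting are not given in the sources used here. Salmon divides reads among similar transcripts, so near-identical family members may be uncertain, which was not examined. Exons of 20 members overlap a gene on the other strand, and those of *gst-4* and of *ugt-37* with *ugt-40* overlap on the same strand.

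Symbols, positions and exon lengths came from Ensembl annotation 115. Whole-number counts were tested with edgeR 4.0.16 in R 4.3.3 (TMM, genes reaching 10 counts in 6 of the 12 libraries, glmQLFit and glmQLFTest). DESeq2 1.42.0 served as an alternative, with other scalings, no filter, 1 fit of all libraries, a replicate block, each library left out, and, added after seeing the data, the other wild type as the control, for *osm-5* also without replicate 3. No batch is given per library, and the main values rest on every library. The methods of the study name batch as a covariate where a dataset spanned 2 batches, without naming those datasets. No batch entered the main tests here. The tests were tried on data simulated from the means and library sizes of the *eat-2* comparison. The other comparisons were not simulated. The libraries are described as biological replicates but not as separate cultures, so p-values measure only the spread between these libraries. No 2 libraries of a group agreed within sampling noise.

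Genes named were *gst-4*, the 3 largest rises and falls of each family per comparison among called members with at least 10 counts on average and no overlap, the 4 highest per kilobase, and up to 3 uncalled members. Others were named after their values were seen. Members and lists were chosen with earlier results of these data known. Of the lists, 1 of 15 intestinal names and 1 of 23 pumps were not matched to a gene.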

Additional observations from a re-analysis of the deposited data

Results flagged for a closer look

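Of 234 sets of 6 libraries examined, each being 1 named gene in 1 group, 39 held a library far from the other 5 by Dixon's test of the gap to the nearest library over the range, where chance gives about 1 in 20. Replicate 3 of the *osm-5*-labelled group gave 23 of them. It was the highest for *gst-4* (430.0 CPM), *gst-10* (263.7), *gst-38* (66.79), *gst-9* (7.728), *gst-34* (5.41), *gst-30* (50.23), *gst-29* (3.423), *gst-12* (21.53), *gst-16* (3.147), *gst-24* (15.79), *gst-33* (17.39), *gst-1* (593.6), *gst-7* (286.5), *gst-5* (788.5), *gstk-2* (8.446), *gst-32* (1.656), *ugt-4* (6.679) and *ugt-59* (1.325 CPM). It was the lowest for *ugt-26* (20.2 CPM), *ugt-30* (8.225), *ugt-63* (35.05), *ugt-22* (140.2) and *ugt-47* (40.24 CPM). The length trend of this library stands in the report, and its part in these values was not tested.

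Replicate 2 of the *eat-2*-labelled group was the highest of its group for *gst-29* (2.027 CPM), *gst-22* (7.24), *gst-27* (62.29), *gst-33* (3.528) and *ugt-57* (10.48 CPM), and replicate 5 for *ugt-62* (152.0 CPM). Among the *ife-2*-labelled libraries, replicate 2 was the highest for *gst-14* (0.5491 CPM), *gst-29* (4.554) and *gst-27* (134.2 CPM), replicate 3 for *gst-10* (309.0 CPM), and replicate 1 was the lowest for *gst-1* (90.55 CPM). *gst-33* stood out in *glp-1* replicate 5 (69.72 CPM) and in wild type 20 °C replicate 2 (35.76 CPM), 2 groups in which other libraries ran up to 26.9 and 8.59 CPM. *glp-1* replicate 2 was the lowest for *gst-1* (96.24 CPM). In wild type 25 °C, replicate 3 was the highest for *gst-9* (2.242 CPM) and replicate 2 for *ugt-42* (1.366 CPM).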

How the results depend on the processing

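Counts of called members mostly stayed within 1.5 times of the main count. The exceptions under total counts alone were *gst* up for *eat-2* (3), *osm-5* (4) and wild type 25 °C (4), *ugt* up in *osm-5* (7), *ugt* down in *ife-2* (5) and *gst* down in *osm-5* (1). Upper-quartile scaling gave 1 *gst* and 1 *ugt* gene down in *ife-2*, DESeq2 gave 14 *ugt* genes down in *eat-2* and 2 *gst* genes down in *osm-5*, and no filter gave 1 *gst* gene down in *osm-5*. With all 36 libraries in 1 fit, *gst* genes up numbered 2 for *eat-2*, 14 for *osm-5* and 2 for wild type 25 °C, and *gst* genes down 6 for *eat-2*, 3 for *ife-2*, 2 for *osm-5*, 3 for *glp-1* and 4 for wild type 25 °C. Against the other wild type, chosen after seeing the data, *gst* up and down were 0 and 1 in *eat-2*, with 2 up in *osm-5* and 0 down in *ife-2*, and *ugt* up and down were 0 and 2 in *eat-2*, 7 and 2 in *osm-5* and 25 and 3 in *glp-1*, with 0 down in *ife-2* (edgeR). Leaving out 1 library gave 4 to 11 *gst* genes up and 0 to 7 down in *osm-5*, the highest of each without *osm-5* replicate 3 and the lowest number up without any 1 of the wild type 20 °C libraries, and 6 to 10 *gst* genes down in wild type 25 °C. No other leave-one-out count moved by over 1.5 times. Without 1 wild type 20 °C library, 14846 to 14884 genes passed the count filter in the *ife-2* comparison, instead of 16636. For *ife-2* calls lost on such a removal, the library and the filter cannot be told apart. Calls of members lost without at least 1 library, with no change of sign, were *gst-26*, *gst-43*, *ugt-3*, *ugt-7*, *ugt-12*, *ugt-21*, *ugt-39* and *ugt-51* in *eat-2*, *gst-2*, *gst-19*, *gst-20*, *gst-30*, *gst-40*, *gst-41*, *gsto-1*, *ugt-4*, *ugt-18*, *ugt-33*, *ugt-40*, *ugt-61*, *ugt-64* and *ugt-65* in *ife-2*, *gst-15*, *gst-24*, *gst-38*, *ugt-3*, *ugt-4*, *ugt-45*, *ugt-48* and *ugt-58* in *osm-5*, *gst-33*, *gst-36*, *ugt-32*, *ugt-41* and *ugt-58* in *glp-1*, and *gst-27*, *gst-31*, *gst-33*, *gst-34*, *gst-44*, *ugt-32*, *ugt-40*, *ugt-55*, *ugt-58* and *ugt-62* in wild type 25 °C.

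Replicate numbers are shared by the groups, but same-numbered libraries correlated between -0.581 and 0.496 in their deviations, so they were not taken as pairs. With the replicate number as a block, *gst* genes up numbered 3 for *eat-2*, 3 for *osm-5* and 5 for *glp-1*, and *ugt* genes up 14 for *osm-5*.

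Directions of genes named by the rule turned as follows, and the cause was not tested. In *ife-2*, upper-quartile scaling gave *gst-1* 0.40 and *gst-7* 0.00, total counts alone gave *gstk-2* -0.31 and *ugt-54* -0.51, and DESeq2 and its size factors both gave *ugt-54* -0.25. Leaving out 1 library, the *osm-5* values ran between -0.89 and 2.22 for *gst-30* and between -0.40 and 0.57 for *gst-7*, the lowest of each without replicate 3. Against the other wild type, *eat-2* values were -0.13 (*gst-10*), -0.28 (*gst-38*), 0.11 (*gst-12*), -0.29 (*ugt-26*), -0.40 (*ugt-53*), 0.28 (*ugt-18*), 0.27 (*ugt-4*), -0.62 (*ugt-41*), -1.18 (*ugt-63*), 0.18 (*ugt-54*) and -0.14 (*ugt-22*). *ife-2* values were 0.95 (*gst-14*), 0.53 (*gst-30*), 0.15 (*gst-12*), 1.59 (*gst-33*), 0.01 (*gst-7*), 0.97 (*ugt-4*) and 0.29 (*ugt-42*), and *osm-5* values -0.65 (*ugt-26*), -0.35 (*ugt-30*), 0.72 (*ugt-4*) and 0.17 (*ugt-54*). *glp-1* values were 1.19 (*gst-10*), 0.32 (*gst-38*), -0.14 (*gst-14*), -0.23 (*gst-12*), -0.50 (*gst-7*), 0.61 (*ugt-26*), 0.86 (*ugt-53*), 0.88 (*ugt-30*), -1.31 (*ugt-18*), -0.27 (*ugt-4*), 0.12 (*ugt-63*), -0.48 (*ugt-54*) and 0.47 (*ugt-47*). Of the other called members that the report names, the sign also turned in *eat-2* for *ugt-12* (-0.40), *ugt-29* (-0.05), *ugt-46* (-0.16), *ugt-48* (-0.33) and *ugt-64* (-0.22), in *ife-2* for *ugt-64* (-0.14), in *osm-5* for *ugt-12* (-0.09), *ugt-46* (-0.16), *ugt-48* (-0.45) and *ugt-64* (-0.15), and in *glp-1* for *gst-20* (-0.26), *ugt-12* (0.05), *ugt-29* (0.41), *ugt-46* (0.20), *ugt-48* (0.33) and *ugt-64* (0.01). Checks of sequence shared between members were not run. The lowest members, such as *gst-14* and *gst-37*, are limited by few counts.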
